A study of Mus musculus with 2 samples.

Results

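The genes described here were 42 regulators of pre-mRNA splicing: 10 SR proteins, 2 TRA2 proteins, 20 hnRNP proteins, 3 PTB proteins and 7 other sequence-specific RNA-binding proteins. They were listed by gene symbol, in a list drawn up with earlier results of these data known, and were found among the 39695 gene entries by their Ensembl identifiers. RNA was sequenced from whole testes of 9-day-old (P9) mice, with 1 library from control males and 1 library from Bcas2F/-;Vasa-Cre males. Control males were Bcas2F/-, so that every mouse had 1 floxed and 1 deleted copy of Bcas2, and the Vasa-Cre transgene, which is active in germ cells from late fetal life, removed the floxed allele only in the mutant germ cells. The strain was labelled C57BL/6, whereas the study's methods give the background of the line as mixed 129/C57BL/6, and the number of mice behind each library was not given in the sources used here. BCAS2 is a subunit of the PRP19 complex, which acts in the catalytic activation of the spliceosome, and the question addressed here was whether testes with germ cells lacking BCAS2 differed in the levels of the mRNAs that encode splicing regulators.

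SR proteins bind exonic enhancers through RNA recognition motifs and recruit spliceosomal components through a domain rich in arginine and serine, and they most often favour inclusion of the exon they bind. hnRNP proteins coat nascent transcripts and often act against SR proteins by silencing exons, although many of them can do either according to where they bind. PTB, RBFOX, MBNL, CELF and STAR-family proteins recognise short sequence elements near exons and give tissues and developmental stages their own splicing patterns, and several of these families shape splicing in the testis.

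The coding sequences set the SR and TRA2 genes apart from the other classes. The following 90-base stretches are the 30 codons of each transcript with the most adjacent serine-arginine or arginine-serine pairs, from GENCODE M21 transcripts on GRCm38 (mm10), written 5′ to 3′ with arginine codons in capitals. They are shown for the SR genes with the most and the fewest pairs, for the SR genes with the highest ratios, and for 3 regulators outside the SR class with some of the largest differences.
Srsf2 (chromosome 11, codons 127 to 156, 23 pairs): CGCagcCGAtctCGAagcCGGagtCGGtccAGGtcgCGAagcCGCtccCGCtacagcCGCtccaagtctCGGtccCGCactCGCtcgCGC
Srsf5 (chromosome 12, codons 197 to 226, 22 pairs): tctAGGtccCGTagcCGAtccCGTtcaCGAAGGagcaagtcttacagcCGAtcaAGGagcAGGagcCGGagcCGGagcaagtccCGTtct
Srsf11 (chromosome 3, codons 276 to 305, 15 pairs): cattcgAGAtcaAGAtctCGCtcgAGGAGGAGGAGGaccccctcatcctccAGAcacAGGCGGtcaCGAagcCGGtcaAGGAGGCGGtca
Srsf9 (chromosome 5, codons 172 to 201, 7 pairs): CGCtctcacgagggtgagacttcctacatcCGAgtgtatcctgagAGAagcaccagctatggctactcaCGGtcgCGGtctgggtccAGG
Hnrnpul1 (chromosome 7, codons 166 to 195, 1 pair): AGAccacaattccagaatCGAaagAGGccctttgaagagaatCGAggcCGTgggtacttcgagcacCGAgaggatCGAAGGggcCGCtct
Mbnl2 (chromosome 14, codons 1 to 30, 2 pairs): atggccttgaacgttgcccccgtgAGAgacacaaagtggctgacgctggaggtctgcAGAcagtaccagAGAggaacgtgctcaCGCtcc
Khdrbs3 (chromosome 15, codons 208 to 237, 1 pair): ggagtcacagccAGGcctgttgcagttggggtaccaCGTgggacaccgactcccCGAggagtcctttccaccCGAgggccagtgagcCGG
In Srsf2 the arginine codons alternated with serine codons over nearly the whole stretch, whereas in Srsf9 they were scattered. At least 4 pairs per 100 codons were counted in 12 of the 42 genes, and these were the 10 SR and the 2 TRA2 genes, with Srsf9 just inside at 4.05. Outside these classes the count was highest in Hnrnpa2b1, with 2.64 pairs per 100 codons.

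The deposited values were RPKM, the reads counted on a gene per kilobase of its length and per 1000000 counted reads of the library. Levels of different genes are compared below on this scale. Such comparisons are approximate, because the gene lengths used and the counting of reads that fit more than 1 gene were not given. The ratio given for each gene is log2 of (RPKM + 1) in Bcas2F/-;Vasa-Cre over (RPKM + 1) in control testes, called the log2 ratio below, and a positive value is a higher level in the mutant library. With 1 library per genotype there were no replicates to compare a difference with, so p-values are not given. The reads behind the values were recovered as whole numbers. Where several whole-number sets fitted, the gene length nearest to the mean annotated transcript length was taken. From these reads, 95% Clopper-Pearson intervals of the RPKM ratio without the pseudocount are given as counting intervals, and their widths rest on that choice. They cover counting error only, and not the spread between mice or libraries.

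Bcas2 itself, the targeted gene, had an RPKM of 39.5 in the control and 25.7 in the Bcas2F/-;Vasa-Cre library, a log2 ratio of −0.60. The remaining reads cannot be divided between germ cells and the somatic cells that keep the floxed allele. The libraries held 19918750 and 19331687 counted reads, a ratio of 1.03, and 14831 genes reached a mean RPKM of 1. Their median log2 ratio was 0.02, and 53.7% of them lay above 0.

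All 42 splicing regulators passed this minimum, and they were well expressed in P9 testes. Their mean RPKM over both libraries ran from 16.9 (Rbfox2) to 772 (Hnrnpk), with a median of 152 against 14.2 for all genes tested. A mean RPKM of at least 100 was reached by 27 of them, and 7 lay under 30. They took 1.35% of the summed RPKM of all entries in the control and 1.42% in the Bcas2F/-;Vasa-Cre library. Between 420 and 32981 reads stood behind each value, so the counting intervals had half-widths of 0.02 to 0.19 on the log2 scale.

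**Figure D1:**
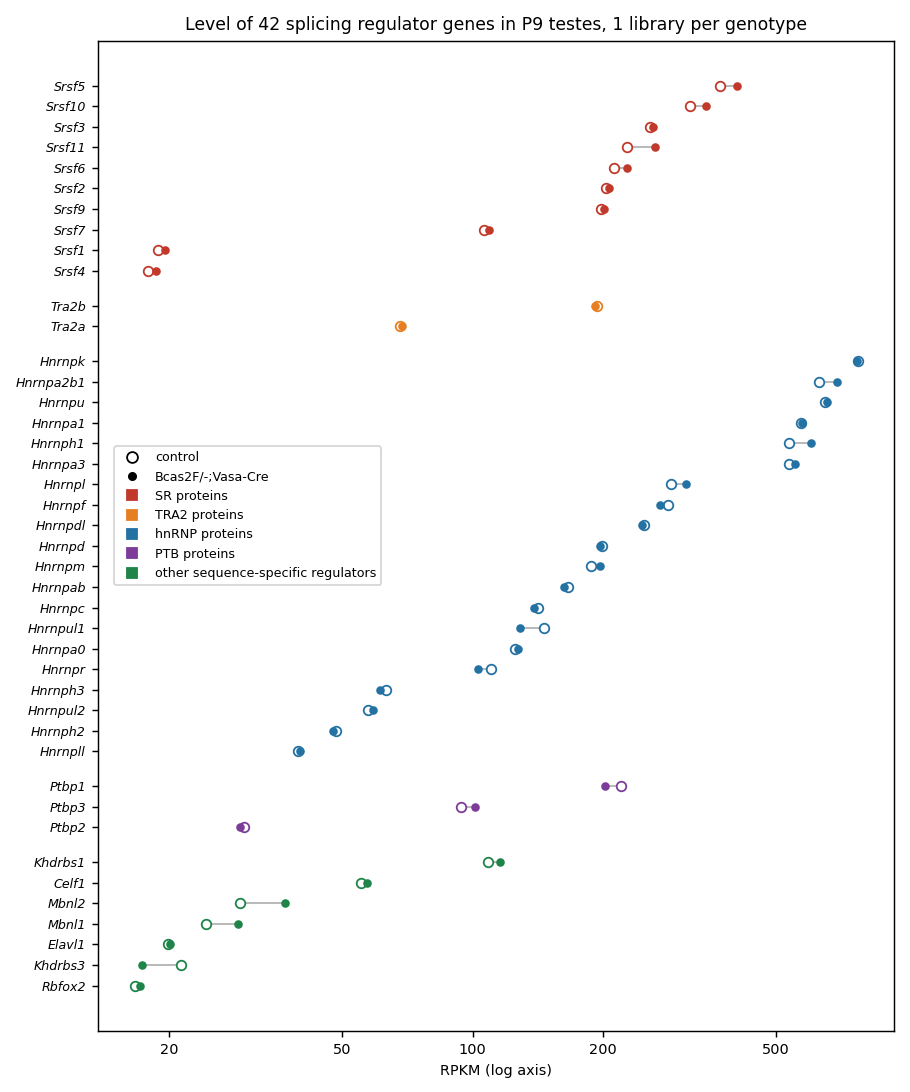
RPKM of each of the 42 genes (log axis) in the control library (open circles) and the Bcas2F/-;Vasa-Cre library (filled circles), by class and sorted by mean level. The 2 circles of most genes touch or overlap, the hnRNP genes fill the upper end up to Hnrnpk at 774 and 769, and the widest gaps are those of Mbnl2, Khdrbs3, Mbnl1 and Srsf11.

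Most of these regulators had similar mRNA levels in the 2 libraries. Their median log2 ratio was 0.02, the same as that of all genes tested to 2 decimals, with an SD over the 42 genes of 0.11. The log2 ratio was above 0 in 28 of the 42 genes, in 23 after centring on the median of all genes and in 34 with RPKM rescaled to the same sum in both libraries. The ratios ran from −0.28 for Khdrbs3 to 0.33 for Mbnl2. RPKM differed by less than 5% in 27 genes and by less than 10% in 35. These limits were not applied to all genes tested, so neither count can be called unusual. Past 1.2-fold there was 1 gene in each direction, Mbnl2 higher and Khdrbs3 lower, where 8.91% of all genes tested were past 1.2-fold higher and 9.37% lower. The balance of that background turned with scaling, from 1321 higher and 1389 lower to 1178 and 1536 after centring and to 2127 and 1564 with RPKM rescaled. Past 1.5-fold there were 0 of the 42, where the background was 1.57% higher and 1.69% lower.

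The background depends on level, because ratios of weakly expressed genes scatter more. Of the 2661 genes at a mean RPKM of 50 or more, 58 were past 1.2-fold higher and 147 lower, and their log2 ratios had an SD of 0.16. The 32 splicing regulators at that level had an SD of 0.08, and 0 of them were past 1.2-fold in either direction. Their log2 ratios ran from −0.18 (Hnrnpul1) to 0.22 (Srsf11). Of all genes at that level, 47.5% lay above 0, against 21 of these 32.

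**Figure D2:**
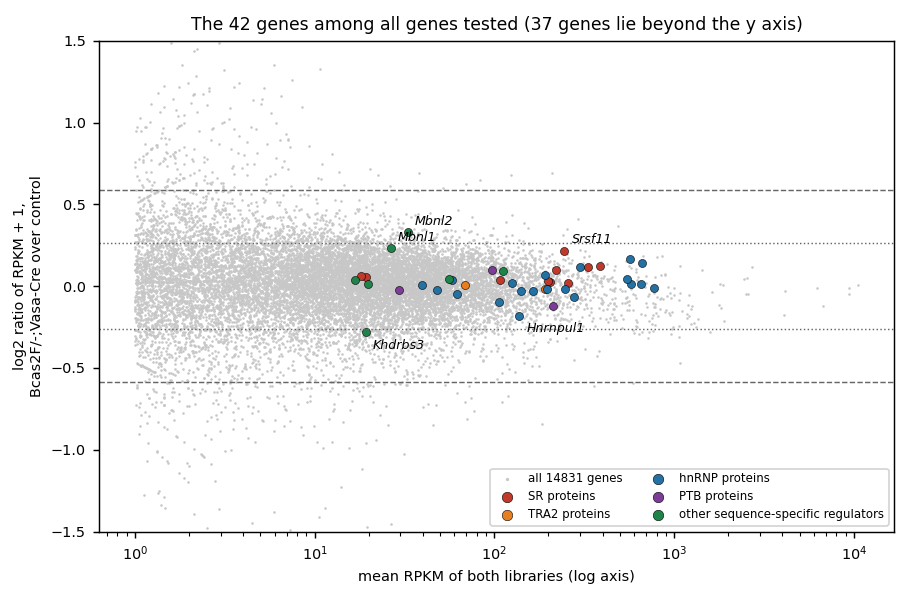
Log2 ratio of RPKM + 1 against mean RPKM (log axis) for the 14831 genes tested (grey) and the 42 splicing regulators (coloured by class), with dotted lines at 1.2-fold and dashed lines at 1.5-fold; 37 genes lie beyond the y axis. Only Mbnl2 and Khdrbs3, both below a mean RPKM of 50, sit past a dotted line.

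With counting error alone, 18 of the 42 ratios could be told from equality. The counting interval lay above 0 in 13 genes and below 0 in 5, and it included 0 in 24. Among the 14388 tested genes whose reads could be recovered, 19.9% had an interval above 0 and 17.9% below 0. The number of intervals below 0 is thus smaller among the splicing regulators and the number above 0 larger, but intervals are narrower for genes with more reads, as these are, and the comparison was not adjusted for that. The direction of small ratios depended on scaling. After centring all genes on a median log2 ratio of 0, 12 intervals lay above 0 and 5 below, and with RPKM rescaled to a sum of 1000000 in each library 20 lay above and 4 below.

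**Figure D3:**
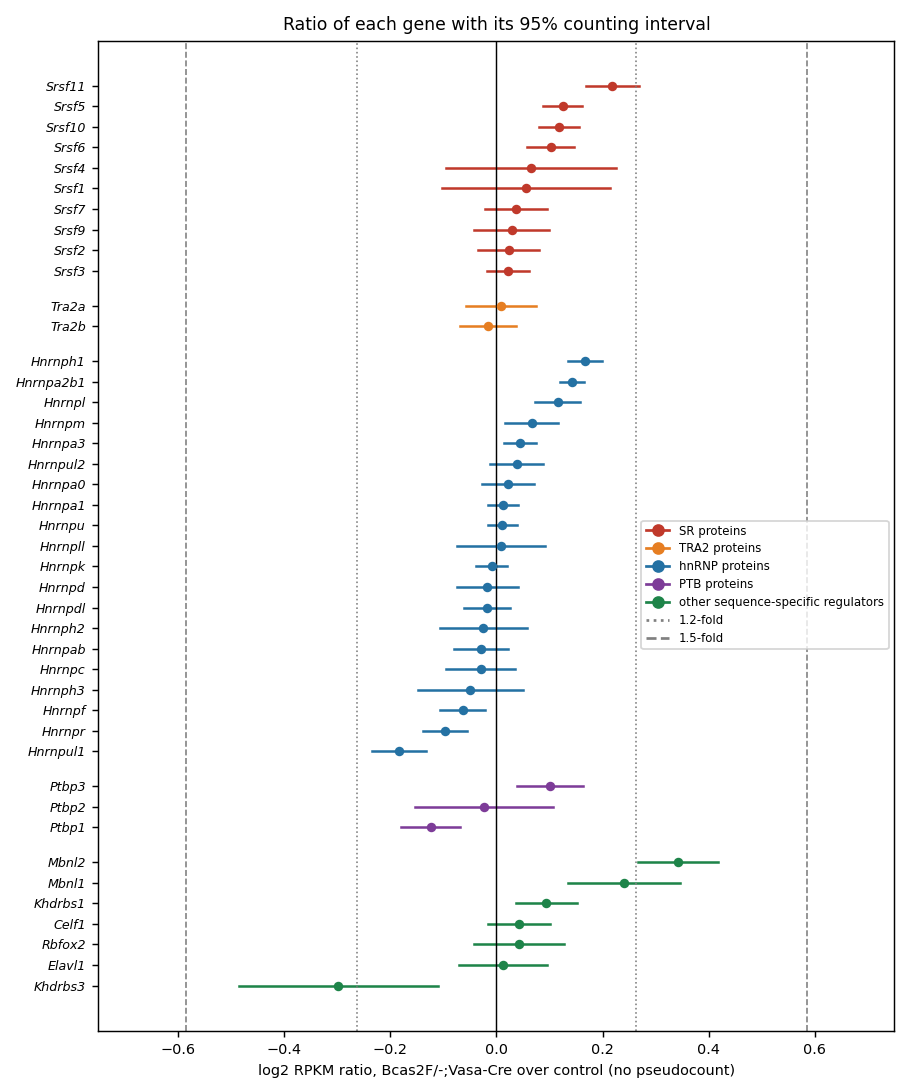
Log2 RPKM ratio without a pseudocount (x axis, Bcas2F/-;Vasa-Cre over control) of each gene with its 95% counting interval, by class and sorted within class; dotted lines mark 1.2-fold and dashed lines 1.5-fold. All 10 SR points lie above 0, the hnRNP points spread to both sides, and only the Mbnl2 interval lies wholly past a 1.2-fold line, which it does not after centring on the median of all genes.

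All 10 SR genes were higher in the Bcas2F/-;Vasa-Cre library, against 53.7% of all genes tested, and by small amounts. The log2 ratios of the 10 genes ran from 0.02 to 0.22 with a median of 0.06. All 10 also stayed above 0 under both other scalings, but these shifted all ratios nearly alike, by −0.015 (centring) and 0.028 (rescaling). Shifts of that size could not bring the lowest SR ratio, 0.021 for Srsf3, to 0, so they do not test the shared direction. Their summed RPKM was 1928 in the control and 2056 in the Bcas2F/-;Vasa-Cre library, a difference of 6.68%. The counting interval excluded 0 in 4 of them, Srsf5, Srsf6, Srsf10 and Srsf11. It lay above 0 in each, as it did in 19.9% of the tested genes with recovered reads. The direction shared by these 10 genes has no replicate check, since all values came from the same pair of libraries.

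Srsf11, which encodes an SR-related protein of 511 codons, stood apart within the class. Its RPKM was 226 in the control and 263 in the Bcas2F/-;Vasa-Cre library, with 6060 and 6844 reads behind it, and its counting interval ran from 0.17 to 0.27. Srsf5, the most abundant SR mRNA, was at 373 and 406 RPKM, a log2 ratio of 0.12. Srsf10, whose product is known as a repressor of splicing when dephosphorylated, was at 318 and 345 RPKM, also 0.12. Srsf6, a close relative of Srsf5, was at 212 and 227 RPKM, a log2 ratio of 0.10. These 4 genes accounted for most of the summed difference of the class.

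The other SR genes differed by less than 5%. Srsf3, the smallest SR protein, was at 256 and 260 RPKM. Srsf2, which recognises exonic enhancers, was at 203 and 206 RPKM, Srsf9 at 197 and 201, and Srsf7, which carries a zinc knuckle, at 106 and 109. The founding member Srsf1 was at only 18.8 and 19.6 RPKM and Srsf4 at 17.8 and 18.7, so the values of these 2 stood far below the rest of the class. Another annotated gene shared 43.0% of the exon bases of Srsf4, so its value may lack or include reads. The 638 to 661 reads of Srsf1 and Srsf4 left counting intervals from about −0.1 to 0.2, and a difference of the size seen in Srsf5 was not detectable at this depth.

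The TRA2 proteins, which bind GAA-rich enhancers and are known regulators of testis exons, did not differ beyond counting error. Tra2a was at 68.2 and 68.6 RPKM and Tra2b at 193 and 191. Their RPKM ratio to each other was 0.352 in the control and 0.359 in the Bcas2F/-;Vasa-Cre library.

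RPKM of a whole gene adds up coding transcripts and transcripts that cells degrade. Many splicing regulators carry alternative exons with a premature stop codon, which route the transcript to nonsense-mediated decay and let the protein limit its own level. GENCODE M21 annotated a decay transcript for 26 of the 42 genes and a retained-intron transcript for 33. In 10 genes, 8 of them among the 12 SR and TRA2 genes, a decay transcript contained an exon that overlapped no exon of a consensus coding transcript. For Srsf3, Srsf7 and Srsf11, where the stop codon comes soonest, and for Tra2b, the exon is given from its first base to the premature stop codon, 5′ to 3′ on the strand of the gene, with the stop codon in capitals.
Srsf3 (chr17:29039454-29039909, plus strand): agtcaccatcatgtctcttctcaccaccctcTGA
Srsf7 (chr17:80204622-80205081, minus strand): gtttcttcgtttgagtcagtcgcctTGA
Srsf11 (chr3:158024123-158024231, minus strand): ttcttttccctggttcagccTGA
Srsf11 (chr3:158023243-158023359, minus strand): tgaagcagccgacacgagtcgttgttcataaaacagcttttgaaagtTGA
Tra2b (chr16:22258986-22259261, minus strand): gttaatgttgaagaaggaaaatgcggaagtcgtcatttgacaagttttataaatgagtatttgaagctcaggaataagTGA
With the stop codon included, the reading frame took up 23 of the 109 bases of the first Srsf11 exon and 81 of the 276 bases of the Tra2b exon. Whether the use of these exons differed between the libraries was not analysed here, because the deposited values give 1 number per gene. The median log2 ratio was 0.02 over the 26 genes with an annotated decay transcript and 0.04 over the 16 without one. It was 0.02 both for the 33 genes with an annotated retained-intron transcript and for the 9 without.

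The hnRNP genes were the most abundant class and were split evenly. Of the 20 genes, 10 were higher and 10 lower in the Bcas2F/-;Vasa-Cre library, with log2 ratios from −0.18 to 0.17 and a median of −0.00. This count moved with scaling, to 7 higher after centring on the median and to 14 with RPKM rescaled. Their summed RPKM was 5797 in the control and 5935 in the Bcas2F/-;Vasa-Cre library. All 5 of the most abundant splicing regulators were of this class.

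Hnrnpk, a poly(C)-binding protein with KH domains, had the highest level, at 774 and 769 RPKM. Hnrnpa2b1 was at 627 and 692 RPKM, Hnrnpu at 650 and 655, and Hnrnpa1 at 571 and 576. Hnrnph1, which binds G-rich elements, was at 537 and 602 RPKM. Within these 5, Hnrnph1 and Hnrnpa2b1 differed by 12.2% and 10.3%, whereas Hnrnpk, Hnrnpu and Hnrnpa1 differed by less than 1%.

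Counting error was smallest here, and 5 hnRNP genes had intervals above 0 and 3 below. For the tested genes with recovered reads the shares were 19.9% above and 17.9% below, and these 20 genes were near those shares. Hnrnph1 had a log2 ratio of 0.17 with a counting interval from 0.13 to 0.20, and Hnrnpa2b1 had 0.14 with an interval from 0.12 to 0.16. Hnrnpl, which binds CA-rich elements, was at 287 and 311 RPKM, a log2 ratio of 0.11. The intervals of Hnrnpm (188 and 196 RPKM) and Hnrnpa3 (536 and 553 RPKM) also lay above 0, but their log2 ratios were only 0.07 and 0.04.

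On the lower side, Hnrnpul1 was farthest from equality. Its RPKM was 146 in the control and 129 in the Bcas2F/-;Vasa-Cre library, with 6777 and 5793 reads. The log2 ratio was −0.18, with a counting interval from −0.23 to −0.13. Hnrnpr was at 110 and 103 RPKM, a log2 ratio of −0.10, and Hnrnpf, a relative of Hnrnph1, at 282 and 270, a log2 ratio of −0.06. Hnrnph3 was at 63.1 and 61.0 RPKM, and its interval included 0.

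The remaining hnRNP genes stayed within counting error. Hnrnpab (166 and 162 RPKM), Hnrnpc (142 and 139), Hnrnpd (199 and 196) and Hnrnpdl (249 and 246) differed by −1.20 to −2.04%. Hnrnph2, at 48.4 and 47.5 RPKM, differed by −1.73%. Hnrnpa0 (125 and 127 RPKM), Hnrnpll (39.7 and 39.9) and Hnrnpul2 (57.3 and 58.8) were higher by less than 3%.

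Related hnRNP genes kept nearly the same order of levels. Hnrnph1 mRNA stood 11.1-fold above Hnrnph2 mRNA in the control and 12.7-fold in the Bcas2F/-;Vasa-Cre library, and Hnrnpl mRNA stood 7.24-fold and 7.80-fold above that of its paralogue Hnrnpll.

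The PTB genes diverged within the class. PTBP1 silences exons next to pyrimidine-rich tracts in most cells, PTBP2 takes over in neurons and male germ cells, and PTBP3 is a further paralogue. Ptbp1 was at 220 RPKM in the control and 202 in the Bcas2F/-;Vasa-Cre library, a log2 ratio of −0.12 with a counting interval from −0.18 to −0.07. Ptbp3 was at 94.2 and 101 RPKM, a log2 ratio of 0.10 with an interval from 0.04 to 0.16. Ptbp2 was at 29.6 and 29.2 RPKM, and its interval, from −0.15 to 0.11, included 0. The ratio of Ptbp1 to Ptbp3 was therefore 2.34 in the control and 2.00 in the Bcas2F/-;Vasa-Cre library, whereas that of Ptbp1 to Ptbp2 was 7.43 and 6.93.

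The widest spread was found among the 7 other sequence-specific regulators, and both genes past 1.2-fold belonged to them. Their log2 ratios had an SD of 0.19, against 0.06 for the SR genes and 0.08 for the hnRNP genes. They were also less abundant, with a summed RPKM of 275 in the control and 293 in the Bcas2F/-;Vasa-Cre library.

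Mbnl2, on chromosome 14 (120275669 to 120431697, plus strand), encodes a muscleblind protein that binds YGCY elements and drives adult-type splicing in muscle and brain. It was at 29.1 RPKM in the control and 36.9 in the Bcas2F/-;Vasa-Cre library, from 2627 and 3232 reads. Its log2 ratio was 0.33 and its counting interval, from 0.27 to 0.42, lay just past the 1.2-fold line at 0.26. After centring on the median of all genes the interval ran from 0.25 to 0.40 and reached inside that line. Its paralogue Mbnl1 was at 24.3 and 28.8 RPKM, a log2 ratio of 0.23 with an interval from 0.13 to 0.35. Both muscleblind genes were thus higher in the Bcas2F/-;Vasa-Cre library, and the ratio of Mbnl1 to Mbnl2 was 0.835 and 0.778.

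Khdrbs3, on chromosome 15 (68928420 to 69101211, plus strand), encodes the STAR-family protein SLM2, also called T-STAR for its expression in testis. It was at 21.2 RPKM in the control and 17.3 in the Bcas2F/-;Vasa-Cre library, with the lowest recovered read counts of all 42 genes, 532 and 420 reads. Other whole-number sets of reads and length fit these values too, so the width of the counting interval rests on the length chosen. The log2 ratio of Khdrbs3 was −0.28 with a counting interval from −0.49 to −0.11, which reached to both sides of 1.2-fold. It was no longer past 1.2-fold with RPKM rescaled. Its paralogue Khdrbs1, which encodes SAM68, a protein required for male fertility, was at 108 and 116 RPKM, a log2 ratio of 0.09 with an interval above 0. The ratio of Khdrbs1 to Khdrbs3 was 5.10 in the control and 6.69 in the Bcas2F/-;Vasa-Cre library, the largest difference of the 8 related pairs compared, at 31.2%.

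The last 3 genes of this class were near equality. Celf1, which binds GU-rich elements, was at 55.4 and 57.1 RPKM, Rbfox2, which binds GCAUG, at 16.6 and 17.1, and Elavl1, which encodes the AU-rich element-binding protein HuR, at 19.8 and 20.03. All 3 counting intervals included 0.

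The ratio of a gene had little relation to its general properties. Over the 42 genes, which come from the same pair of libraries, Pearson's r with the log2 ratio was 0.09 for log2 of the mean RPKM and 0.13 for gene length. It was −0.04 for the GC content of the coding sequence and 0.21 for the number of annotated retained-intron transcripts. The 12 genes with at least 4 serine-arginine pairs per 100 codons had a median log2 ratio of 0.05, with 11 above 0, and the 30 others had a median of 0.01, with 17 above 0.

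Some values may include reads of other genes or lack reads of their own, because the counting of reads that fit more than 1 gene was not described. Reads of overlapping genes could not be assigned by strand, since the library kit does not mark it. Exon bases shared with another annotated gene made up over 10% in 6 genes, Srsf2, Srsf4, Hnrnpab, Hnrnpf, Hnrnpm and Ptbp1, and 43.0% in Srsf4. Sequence matches to 15 of the genes were found in 59 annotated pseudogenes (at least 90% identity over at least 50% of the pseudogene), 5 of which had an RPKM of at least 1. The reads counted on these copies came to at most 3.40% of those of the parent, in Hnrnpc. The largest shift of a log2 ratio on adding them was 0.00316 in size, in Tra2b. Any reads left out of the counts because they fit both a gene and a copy are not part of this shift.

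Genes outside the 42 that act in the same pathway had ratios over a wider range. Of 85 such genes in 3 lists, 75 had a mean RPKM of at least 1, and their median log2 ratio was 0.08, with 53 above 0. Past 1.2-fold, 4 were higher and 5 lower, and past 1.5-fold 1 was lower. For all genes tested the shares were 8.91% and 9.37% past 1.2-fold and 1.69% past 1.5-fold lower, so these counts were no larger than the background.

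Among the relatives of the 42 genes, 22 of 29 were tested, with a median log2 ratio of 0.07. The gene past 1.5-fold was Elavl2, a neuronal and gonadal paralogue of Elavl1, at 18.6 RPKM in the control and 10.02 in the Bcas2F/-;Vasa-Cre library, a log2 ratio of −0.83. Rbmxl2, the male germ cell paralogue of the hnRNP G gene Rbmx, was at 17.1 and 11.7 RPKM, a log2 ratio of −0.51. Rbmx itself was at 44.0 and 52.4 RPKM, a log2 ratio of 0.25, so that this pair differed in direction. Mbnl3, the third muscleblind paralogue, was at 8.72 and 6.84 RPKM, a log2 ratio of −0.31, unlike Mbnl1 and Mbnl2. Taf15, of the FET family, was higher at 104 and 126 RPKM, and Rbfox1 was near the limit of the filter at 0.971 and 1.55 RPKM.

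SR proteins are phosphorylated by SRPK kinases in the cytoplasm and CLK kinases in the nucleus and are imported by transportin-SR. The 8 genes for these had a median log2 ratio of 0.01, with 4 above 0 and 4 below. Srpk1 was lower, at 80.9 and 66.7 RPKM, a log2 ratio of −0.28 and past 1.2-fold. Srpk3, at 1.196 and 0.979 RPKM, and Clk3, at 19.4 and 17.9, were the next lowest. Clk1 was the highest, at 124 and 147 RPKM, a log2 ratio of 0.24, followed by Srpk2 at 33.0 and 35.1 RPKM and Clk4 at 68.6 and 72.5.

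Of 48 SR-related proteins and other splicing cofactors, 45 were tested, with a median log2 ratio of 0.09 and 35 above 0. Those farthest above were Tial1 at 51.3 and 63.5 RPKM, a log2 ratio of 0.30, and the weakly expressed Srrm4 and Rbm20, with log2 ratios of 0.27 and 0.25. Those farthest below were Rbm38 at 33.1 and 23.8 RPKM, a log2 ratio of −0.46, Rnps1 at 74.8 and 64.7, and Esrp1 at 20.3 and 17.5.

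**Figure D4:**
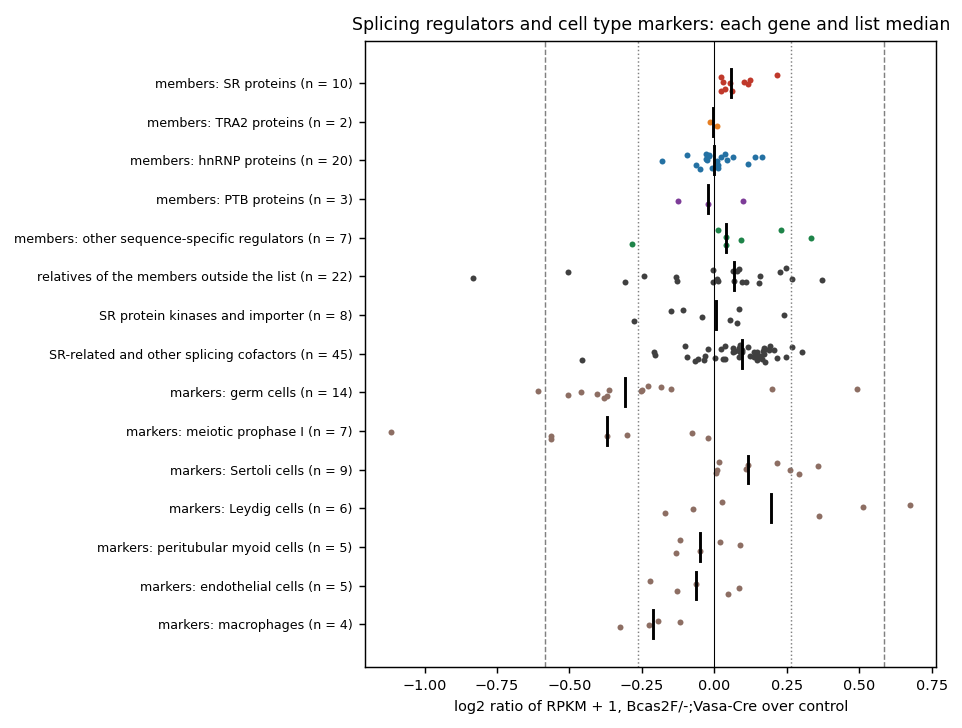
Log2 ratio of RPKM + 1 (x axis) of each gene with a mean RPKM of at least 1 in the 5 classes of splicing regulators, 3 lists of other splicing regulators and 7 marker lists, with the list median as a black bar, dotted lines at 1.2-fold and dashed lines at 1.5-fold. The 42 genes stay in a narrow band around 0, the germ cell and meiotic markers have medians of −0.31 and −0.37, and the Sertoli and Leydig markers have medians of 0.12 and 0.20.

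The make-up of the RNA differed between the libraries. In whole testes, fewer cells of a type and less RNA per cell cannot be told apart, and every ratio above is an average over germ and somatic cells. Of 14 germ cell markers, 12 were below 0, led by Stra8 (87.2 and 56.8 RPKM) and Mael (141 and 99.5). Past 1.2-fold, 7 were lower and 1 was higher, Nanos2 (1.01 and 1.83), where 9.37% of all genes tested were lower and 8.91% higher. The summed RPKM of these 14 markers was 726 in the control and 556 in the Bcas2F/-;Vasa-Cre library. All 7 meiotic prophase I markers were below 0, 5 of them past 1.2-fold, with a summed RPKM of 126 and 88.7. None of the germ cell or meiotic markers was at 0 in either library. The study's replicated real-time RT-PCR at P9 found similar levels of Stra8, Sohlh1, Sohlh2, Kit, Dazl, Ddx4 and Nanos2 in both genotypes. It found Dmc1, Sycp1, Sycp3 and Smc1b lower in the mutant. The study's counts of PLZF-positive cells and of basal MVH-positive cells, at later ages, did not differ significantly. The germ cell ratios here, from 1 library per genotype, thus differ from that RT-PCR for several genes.

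Somatic markers moved less or the other way. The 9 tested Sertoli cell markers were all above 0, 2 of them past 1.2-fold, led by Amh (134 and 172 RPKM), and their summed RPKM was 3652 and 3995, whereas the other marker, Rhox5, was listed at 0 in both libraries. Of 6 Leydig cell markers, 4 were above 0 and 2 below, with sums of 387 and 431. Past 1.2-fold 3 were higher, led by Cyp17a1 (94.8 and 152 RPKM), whereas Hsd3b1, the most abundant, was lower (189 and 168 RPKM). Of all genes tested, 53.7% were above 0 and 8.91% were past 1.2-fold higher. Markers of peritubular myoid cells (523 and 489), endothelial cells (38.9 and 37.1) and macrophages (35.4 and 29.3) had lower sums. The part of this make-up in the ratios of the splicing regulators, the lower Khdrbs3, Elavl2 and Rbmxl2 and the higher SR genes, Mbnl1 and Mbnl2 included, was not tested.

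Blood and stress markers also differed. Neutrophil markers summed to 25.8 RPKM in the control and 3.12 in the Bcas2F/-;Vasa-Cre library. All 4 tested were past 1.5-fold lower, where 1.69% of all genes tested were. Few reads stood behind these 4 in the Bcas2F/-;Vasa-Cre library, from 4 for S100a9 to 21 for Camp. Red cell markers summed to 980 and 944, with 5 below 0 and 1 above. Slc4a1 was at 15.7 and 0.607, whereas Hbb-bs, the most abundant of them, was at 551 and 596. The 8 immediate-early genes summed to 142 and 114, with 6 below 0 and 2 above. Fosb was at 10.9 and 0.276, whereas Jun, the most abundant of them, was at 41.9 and 41.1. The part of blood and stress markers in the ratios above was not tested either.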

How the data were processed

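Paired-end reads had been aligned with TopHat2 and counted by HTSeq, and the authors deposited the result as RPKM, 1 value per gene entry and library, zeros included. The submitters' processing notes name TopHat2 2.0.9 and mm10. The annotation release and the gene lengths were not given in the sources used here, nor whether a count is a read or a pair. RPKM corrects for length and library size, but not for RNA composition.

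Entries were matched by Ensembl identifier to GENCODE M21 (37606 of 39695, 94.7%). The members, lists and thresholds were chosen with earlier results of these data known. Log2 ratios used a pseudocount of 1, which understates changes of low genes, and genes reaching a mean RPKM of 1. Within a library each read adds a fixed step to the RPKM of a gene. Library sizes were therefore recovered from genes with 1 transcript, and then the reads and length of each gene (reads whole within 1e-05, lengths within 0.01). Several sets of whole numbers can fit the same gene, and the set with the length nearest to the mean of its GENCODE M21 transcripts was taken. Whole numbers within these limits were found for 97.0% of tested genes and for all 42 members. No count test was run on them, because each genotype had 1 library. Simulated data with known reads and changes tested the recovery in genes with many reads, and the intervals in unchanged genes with counting error alone. Recovery in genes with few reads was not tested.

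All 42 genes were named, with the 6 largest falls and rises, the 5 highest levels and Bcas2. Named too were up to 3 genes per direction of each other list and some genes of the marker lists. Alternatives were other pseudocounts, filters and scalings. Python 3.11.15, numpy 2.4.6, scipy 1.17.1, pandas 2.3.3, matplotlib 3.10.9 and BLAST+ 2.17.0 were used. Alternative splicing was not analysed here.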

Additional observations from a re-analysis of the deposited data

How the results depend on the processing

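No paired analysis was possible because each genotype had 1 library, and for the same reason no library could be left out. The median of the 42 genes moved by no more than 0.03 under any alternative, and under the 4 alternatives that can change a single ratio, 165 of 168 ratios moved by less than their counting half-width. Neither gene past 1.2-fold changed sign, which shifts this small could not have brought about. The other 3, Hnrnpa2b1, Hnrnpa1 and Hnrnpu, moved with RPKM rescaled to a sum of 1000000, to 0.17, 0.04 and 0.04. That rescaling shifted the ratios by about 0.03, brought the genes above 0 from 28 to 34 and left 1 past 1.2-fold. Setting the median of all genes to 0 left 23 above 0. Of the other splicing regulators, 2 were past 1.5-fold with a pseudocount of 0.1 or 0.01, or with RPKM rescaled, which also brought those past 1.2-fold to 14.

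The counts over all genes moved most. Past 1.5-fold, 454 were higher and 457 lower with a pseudocount of 0.1, 491 and 485 with 0.01, 511 and 468 without a filter, 46 and 104 with a mean RPKM of at least 5, and 5 and 12 at 50. With RPKM rescaled 434 were higher. Past 1.2-fold, 2459 were higher and 2368 lower without a filter, 548 and 775 at 5, 58 and 147 at 50, 2127 and 1564 with RPKM rescaled, and 1178 and 1536 after centring. Added pseudogene reads, leaving out 6 members with shared exon bases and the minimum of 50 were chosen after seeing the data, and the first 2 gave medians of 0.02 and 0.03 with 2 genes past 1.2-fold in each. Depth limited the least abundant genes, whose counting intervals had half-widths of up to 0.19.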
